A study of Mus musculus with 29 samples.

Results

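In mouse embryonic cortex (E14.5), 1643 regions of open chromatin differed from WT in libraries with 1 mutant Myt1l allele (Het) while the libraries with 2 mutant alleles (Hom) averaged close to WT. They were chosen from 205908 regions by 3 conditions on the deposited values. The mean level had to be from 2 to under 20 CPM, counts per region scaled to the size of the library, and 81607 regions met this. The mean log2 value of Het had to differ from that of WT by at least 0.3, and that of Hom had to differ from WT by less than 0.1. Of the 1643 regions, 921 were higher in Het and 722 were lower. These differences chose the regions, so the genotype levels, and the calls of Het or Hom differences at these regions, are given below as a description and support nothing. Litter, on which the choice did not rest, is the one factor tested.

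Accessibility was measured by ATAC-seq, in which a transposase inserts sequencing adapters into DNA that is not packed away, so that more reads come from more open chromatin. The groups were embryonic cortex of WT (6 libraries), Het (5) and Hom (6) embryos of a Myt1l knockout line, from 2 litters: litter 1 gave 4 WT, 3 Het and 4 Hom libraries, and litter 2 gave 2 of each. The sources used here do not give the mutation, the strain or the sex of the embryos, and the labels name no treatment. The labels do not say that each library is a separate embryo, so the p-values measure the spread between libraries. That spread is the one left in the deposited values after the authors' adjustment, which is described below.

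Myt1l encodes a zinc finger transcription factor of the MYT1 family that is made in neurons from the time they leave the cell cycle. It is known for holding down genes of non-neuronal cells. The cortex at this stage holds dividing progenitors and newly formed neurons, and open regions are where promoters, enhancers and other regulatory elements are found. In whole tissue, a change in the share of cells that have a region open and a change in how open it is in each cell cannot be told apart. The deposited table numbers its regions and pairs them with no coordinates or genes. For that reason no sequence, gene or location class is given for any region, and neither the tissue label nor the genotype labels were checked against a gene.

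At the 921 higher regions the 5 Het libraries stood apart from the rest as a group, by a small amount. The median level over these regions was 3.40 to 3.45 CPM in the Het libraries, 2.63 to 2.69 CPM in the 6 WT libraries and 2.66 to 2.74 CPM in the 6 Hom libraries. The median Het difference was 0.35 log2, with quartiles of 0.32 and 0.40 and a largest difference of 0.70. The median Hom difference at the same regions was 0.03 log2. Both differences are taken from the same 6 WT libraries.

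At the 722 lower regions the order was the opposite. The median level was 2.58 to 2.71 CPM in the Het libraries, 3.36 to 3.50 CPM in WT and 3.29 to 3.40 CPM in Hom. The median Het difference was -0.35 log2, and it ran from -0.72 to -0.30. The median Hom difference was -0.03 log2.

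**Figure D1:**
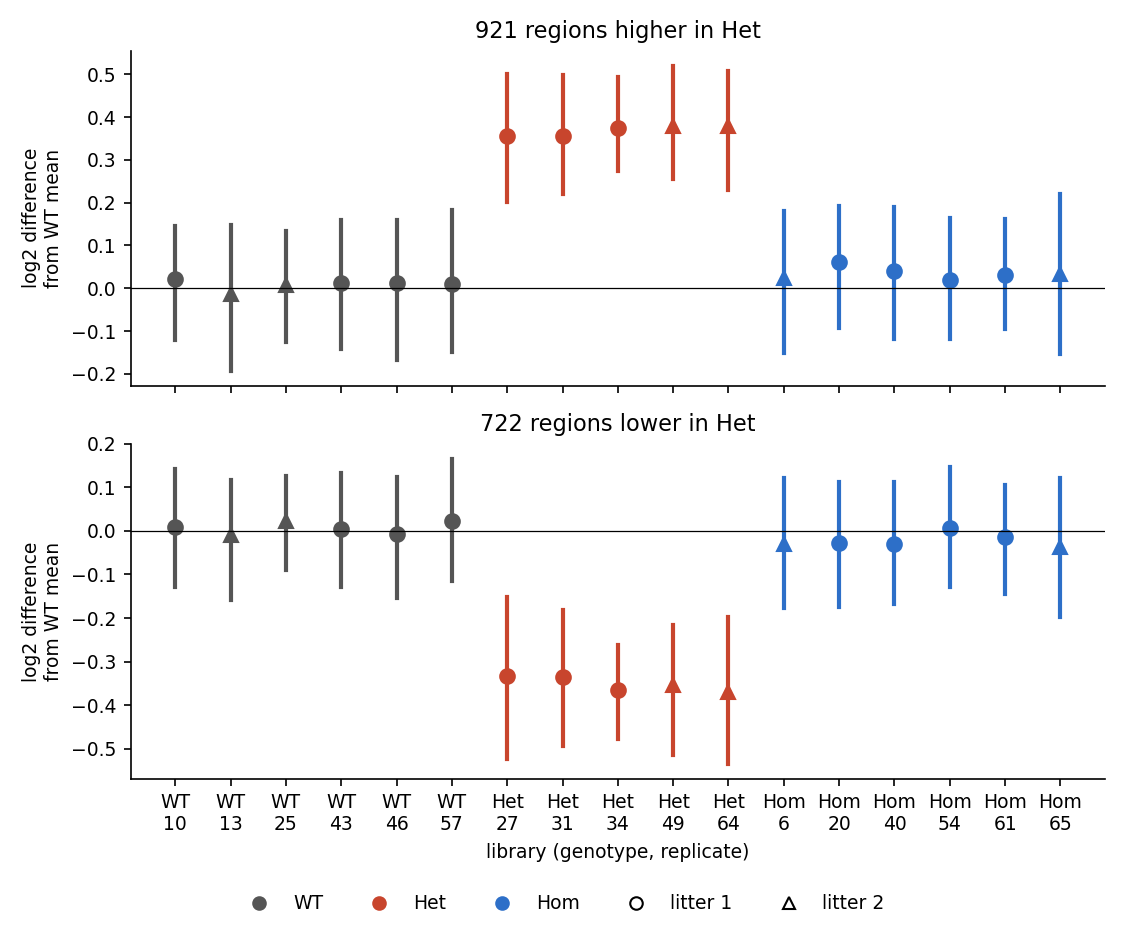
Difference of each library from the WT mean (log2, vertical axis) at the 921 regions higher in Het (top) and the 722 lower in Het (bottom), with 1 position per library on the horizontal axis. Points are medians over regions, bars run from the lower to the upper quartile, circles are litter 1 and triangles litter 2. The Het medians lie at 0.36 to 0.38 in the top panel and at -0.37 to -0.33 in the bottom panel, while the WT and Hom medians stay within 0.07 of 0.

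The 5 Het libraries took similar parts in the shift. Among higher regions their medians lay between 0.36 and 0.38 log2 above the WT mean, and the share of regions in which a given Het library exceeded the WT mean ran from 93.0% in replicate 27 to 99.1% in replicate 34. Among lower regions their medians lay between 0.33 and 0.37 log2 below the WT mean (-0.37 to -0.33), and a given Het library was below the WT mean at 91.5% to 98.9% of regions. The most shifted library was replicate 27 at 21.8% of the higher regions, replicate 31 at 19.3%, replicate 34 at 15.6%, replicate 49 at 21.9% and replicate 64 at 21.3%. For the lower regions these shares were 23.5%, 19.8%, 13.3%, 19.1% and 24.2% in the same order. Replicate 34 was thus least often the extreme library and most often on the side of its group.

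Single regions were also described with a single Het library left out. Dropping the most shifted library always makes the difference smaller, and no share for other regions was computed. The counts therefore describe the members and do not measure how far they rest on single libraries. At 431 of the 921 higher regions (46.8%) the Het mean stayed at least 0.3 log2 above WT whichever Het library was left out, and at 255 of the 722 lower regions (35.3%) it stayed at least 0.3 below. Without the most shifted library of each region, 28 higher and 49 lower regions no longer had a Het difference of 0.2 log2 in the direction of their set. At 1 of these lower regions it changed sign, to 0.48 log2 above WT, and no higher region changed sign. An SD over 0.5 log2 among the Het libraries was found at 25 lower regions (3.46%) and 2 higher regions (0.217%), against 0.491% of all regions from 2 to under 20 CPM.

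Libraries of the groups overlapped at most members. The lowest Het library lay above the highest WT library at 139 of the 921 higher regions (15.1%). Of the 138760 regions of the table that average 1 CPM or more, here called tested regions, 0.937% had Het libraries wholly above WT. At 102 of the 722 lower regions (14.1%) all Het libraries lay below all WT libraries, against 1.53% of the tested regions. Het libraries lay wholly above the Hom libraries at 120 higher regions (13.03%) and wholly below them at 78 lower regions (10.8%), and over all tested regions these shares were 0.664% and 0.757%. Since the choice of regions fixed these directions, the shares are no evidence for them. Het lay beyond every WT and every Hom library at 59 higher (6.41%) and 39 lower regions (5.40%), and at 0.153% and 0.205% of the tested regions. Conversely, at least 1 Hom library was more shifted than the Het mean at 332 of the 921 higher (36.0%) and 243 of the 722 lower regions (33.7%). No share over the tested regions was computed for this count. The choice of regions fixes on which side of Het the Hom mean lies, so nothing is read from it.

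**Figure D2:**
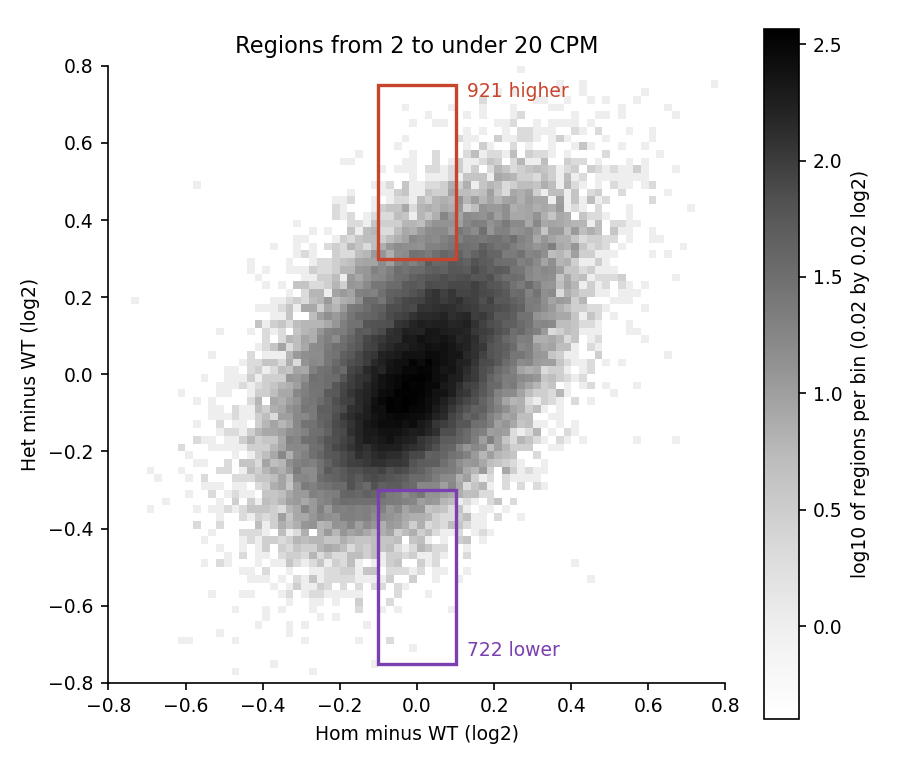
Mean log2 difference of Hom from WT (horizontal axis) and of Het from WT (vertical axis) for regions from 2 to under 20 CPM, with grey for the number of regions per bin on a log10 scale. The red box holds the 921 regions higher in Het and the purple box the 722 lower ones. Both boxes lie on the flanks of one continuous cloud, and both axes use the same WT libraries.

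The regions are the edge of a continuous spread and no separate cluster, as the plot of Het against Hom differences shows. In the level window the Het differences had a median of -0.01 log2 and an SD over regions of 0.17, and the Hom differences a median of -0.01 and an SD of 0.14. Het was higher by 0.3 log2 or more at 3527 regions, of which the 921 make up 26.1%, and lower by as much at 2407, of which the 722 make up 30.0%. The same thresholds with Het and Hom exchanged gave fewer regions, 260 higher and 345 lower in Hom, out of 1707 and 1332 regions shifted that far in Hom. Het has 5 libraries and Hom 6, and whether these counts differ beyond the libraries' spread was not tested.

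Just inside the Het threshold lay a higher region at 0.3001 log2 and just outside it 1 at 0.2999. Among lower regions these values were -0.3004 and -0.2998. Within 0.02 log2 of the threshold there were 230 higher regions inside and 296 outside, and 184 lower regions inside and 297 outside. At the Hom limit, the nearest higher regions stood at a Hom difference of 0.09988 log2 inside and -0.10 outside, and the nearest lower ones at -0.09973 and -0.1002. Mean levels of the regions chosen ran from 2.00 to 18.2 CPM for higher and 2.00 to 19.3 CPM for lower ones. The nearest regions outside the level limits that met the other conditions had 1.999 and 23.4 CPM (higher) and 1.996 and 22.6 CPM (lower).

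The errors of the group differences were as large as the limit set on Hom. In a limma fit of all 17 libraries, the median SE of the Hom difference was 0.14 log2 over the higher regions and 0.13 over the lower ones, and it exceeded 0.1 at 835 (90.7%) and 602 (83.4%) of them. The smallest SE was 0.064 log2 among higher and 0.059 among lower regions. The data therefore do not place Hom within 0.1 log2 of WT at these regions, although its mean was there. The median SE of the Het difference was 0.15 log2 for higher and 0.14 for lower regions, against 0.12 over the level window.

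Most of the regions were weakly open. Of the higher ones, 517 (56.1%) had a mean from 2 to under 3 CPM, a class that holds 26.6% of the level window, and 14 (1.52%) had 10 CPM or more, a class that holds 17.2%. The lower regions counted 336 (46.5%) in the first class and 29 (4.02%) in the last. As a share of each class, higher regions went from 2.38% at 2 to under 3 CPM through 1.26% at 3 to under 5 and 0.452% at 5 to under 10 to 0.0994% at 10 to under 20 CPM. For lower regions the shares were 1.55%, 1.09%, 0.478% and 0.206% in the same order. Higher regions were thus the more numerous at weakly open chromatin, and lower regions at the most open part of the window.

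The spread among libraries went the same way with level. The median SD among WT libraries over all regions of a class was 0.24 log2 at 2 to under 3 CPM and 0.11 at 10 to under 20 CPM. In the weakest class the median SD among Het libraries was 0.22 log2 at higher regions, 0.27 at lower regions and 0.23 over all regions. The median SD among WT libraries there was 0.26, 0.23 and 0.24. The part of this spread in the choice of regions was not tested.

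**Figure D3:**
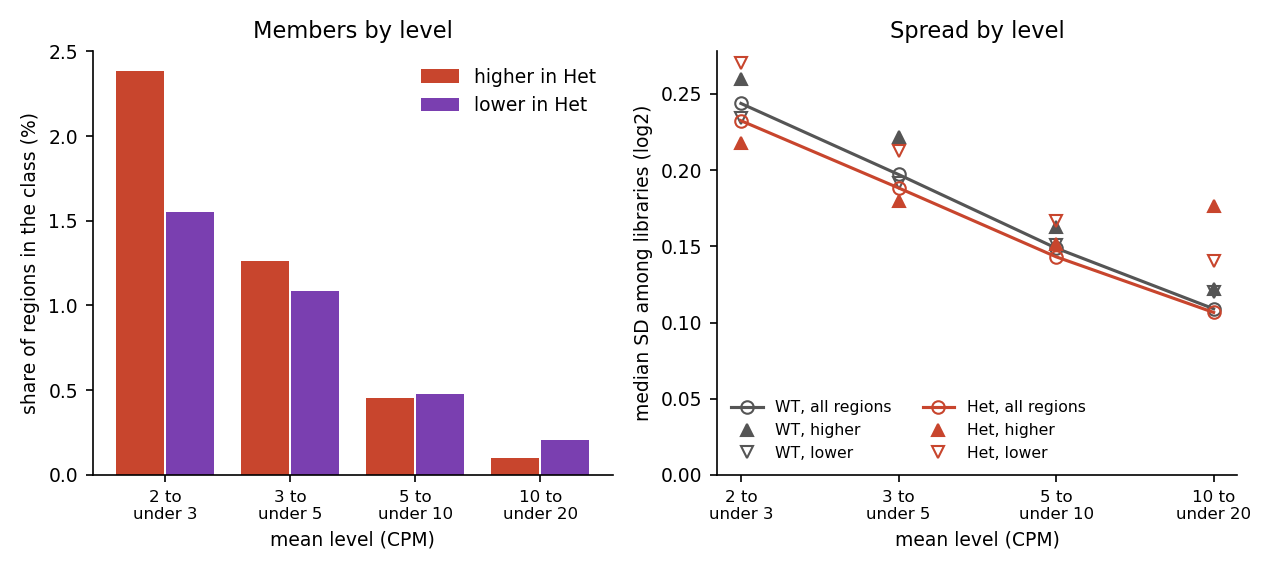
Left, share of all regions in each level class (horizontal axis, mean CPM) that was chosen as higher (red) or lower (purple) in Het, in percent. Right, median SD among the WT (grey) and Het (red) libraries in log2, for all regions of the class (line), higher regions (filled triangles) and lower regions (open triangles). Shares go from 2.38% and 1.55% in the weakest class to 0.0994% and 0.206% in the most open one.

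In a limma fit over all 138760 tested regions, called at an adjusted p under 0.05, 66 of the 921 higher regions (7.17%) were among those that rose in Het and 89 of the 722 lower regions (12.3%) among those that fell. Over all tested regions 0.4% rose and 0.819% fell. The regions were chosen on this contrast, which fixes the direction of the calls, so nothing is read from these shares. The 66 make up 11.9% of all rises called and the 89 make up 7.83% of all falls. The 66 had a median level of 6.18 CPM and a median difference of 0.41 log2, and the 855 other higher regions had 2.77 CPM and 0.35 log2. The 89 had 8.02 CPM and a difference of 0.35 log2 in size, and the 633 other lower regions had 2.95 CPM and 0.35. A call depends on the SE, which is smaller at higher levels, so nothing is read from this difference in level.

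The call counts depended on single libraries, at these regions as over the whole table. Without Het replicate 34 there were 10 higher and 10 lower calls among the members, and 86 and 117 over all tested regions (0.062% and 0.0843%). Without WT replicate 25 there were 16 and 17 among the members, and 175 and 281 over all (0.126% and 0.203%). The other libraries that moved a count by more than 1.5 times were WT replicates 10 (26 and 37), 43 (35 and 39) and 57 (48 and 56) and Het replicates 31 (31 and 48), 49 (30 and 33) and 64 (30 and 40), and without them 0.161% to 0.298% of all tested regions were called higher and 0.347% to 0.481% lower. The directions of variation that are taken as removed by the authors' adjustment were also used as covariates. With them, 9 higher and 5 lower members were called, and 71 and 99 regions over all. After quantile normalization it was 34 and 18 members, and the balance over all tested regions also turned, to 363 higher and 163 lower.

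The region all_e14_peak_1961 was picked as the higher region with the smallest adjusted p of Het against WT; no p is given for it or the next regions, since they were chosen on that difference. Its levels were 14.2, 13.4, 14.2, 14.7 and 11 CPM in Het replicates 27, 31, 34, 49 and 64. WT ran from 8.62 to 10.6 CPM with a median of 9.35, and Hom from 8.71 to 11.3 CPM with a median of 10.1. All 5 Het libraries lay above all WT libraries, and replicate 64 alone fell within the Hom range. The Het difference was 0.50 log2 (SE 0.08) and the Hom difference 0.08 (SE 0.08), with means of 13.5 ± 1.48 CPM (SD, n = 5) in Het, 9.54 ± 0.769 CPM (n = 6) in WT and 10.1 ± 1.08 CPM (n = 6) in Hom.

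The higher region with the largest Het difference, all_e14_peak_171619, varied widely within every genotype. Het libraries gave 2.71, 4.26, 2.03, 2.38 and 4.92 CPM in the order above, WT libraries 1.00 to 3.24 CPM with a median of 1.86, and Hom libraries 0.301 to 3.50 CPM with a median of 2.34. The 3 groups overlapped, and 1 Hom library, replicate 40, lay far below the others at 0.301 CPM. The Het difference was 0.70 log2 with an SE of 0.35, and it was not among those called. The Hom difference of -0.04 log2 had an SE of 0.33.

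Among the lower regions, all_e14_peak_183857 had the largest Het difference. It measured 3.01, 1.62, 2.13, 2.23 and 2.63 CPM in Het replicates 27, 31, 34, 49 and 64, 2.76 to 4.51 CPM in WT with a median of 3.81, and 3.16 to 4.41 CPM in Hom with a median of 3.76. Het replicate 27 overlapped the lowest WT library, and all Het libraries lay below all Hom libraries. Het was lower by 0.72 log2 (-0.72, SE 0.14), and Hom differed by -0.02 (SE 0.14).

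The lower region picked by the smallest adjusted p was all_e14_peak_55382. Het libraries gave 2.11, 2.53, 1.93, 2.18 and 1.98 CPM, below every WT library (3.06 to 3.66 CPM, median 3.48) and every Hom library (2.79 to 4.36 CPM, median 3.02). Het overlapped neither group. The Het difference was -0.68 log2 (SE 0.13), and Hom differed by -0.07 (SE 0.13). In litter 1 alone the Het difference was -0.65 log2 at all_e14_peak_55382 and -0.77 at all_e14_peak_183857, and neither was called there.

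**Figure D4:**
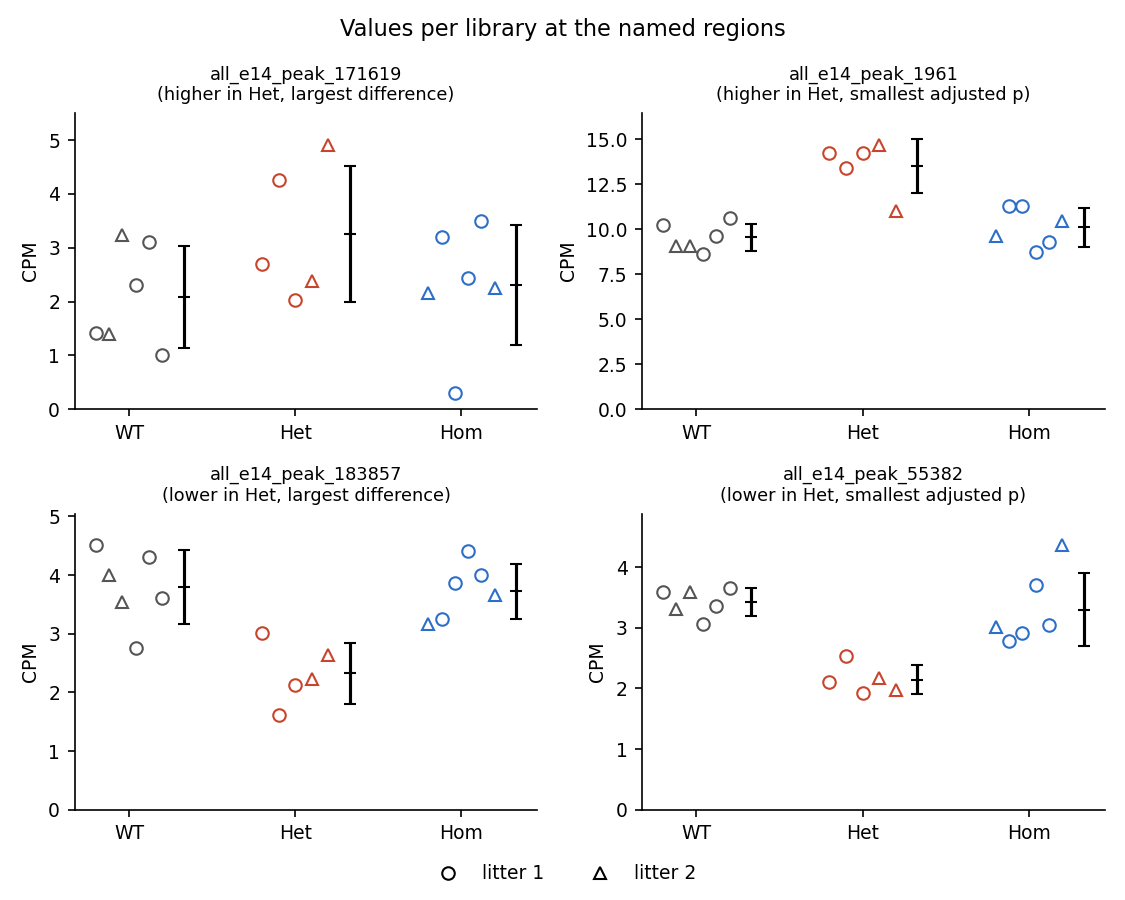
Level in CPM (vertical axis) of each library by genotype (horizontal axis) at the 4 named regions, with circles for litter 1 and triangles for litter 2. Black bars give the mean and SD of each group. Het is clear of WT at all_e14_peak_1961 and all_e14_peak_55382, and the groups overlap at all_e14_peak_171619.

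The thresholds on Het and Hom together fix a difference between the mutant groups of over 0.2 log2 and its sign. Hom minus Het ran from -0.73 to -0.20 log2 at the higher regions, with a median of -0.34, and from 0.20 to 0.70 at the lower ones, with a median of 0.33. In the fit over all tested regions 4 of the 1643 were called in this comparison, against 0.013% of all regions lower and 0.00793% higher in Hom, and since the rule sets the difference, nothing is read from the calls. The count was 2 or fewer without Het replicate 31, 34 or 64, WT replicate 46, or Hom replicate 6, 54 or 61. In those settings 0.0072% to 0.0187% of all tested regions were called.

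The 4 regions, picked out after their values were seen, serve as examples of the pattern. One is all_e14_peak_1961, described above, where Hom minus Het was -0.42 log2 (SE 0.08). At all_e14_peak_230222, where it was -0.46 (SE 0.08), levels were 12.6 ± 1.19 CPM (SD, n = 5) in Het, 9.41 ± 0.75 CPM in WT and 9.19 ± 1.22 CPM in Hom (n = 6 each), and the lowest Het library, at 11.2 CPM, lay above all WT and Hom libraries.

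At the other two, Hom was above Het. At all_e14_peak_114819 the difference was 0.49 log2 (SE 0.10), with Het at 6.51 ± 0.813 CPM, WT at 8.77 ± 1.13 CPM and Hom at 9.15 ± 0.991 CPM (SD). The groups overlapped there: the highest Het library, 7.70 CPM, lay above the lowest WT (6.92 CPM) and the lowest Hom library (7.37 CPM). At all_e14_peak_25926 the difference was 0.41 log2 (SE 0.08), with 7.05 ± 0.46 CPM in Het, 9.19 ± 0.814 CPM in WT and 9.37 ± 0.856 CPM in Hom. At this region the highest Het library, 7.65 CPM, was below the lowest WT library, 8.26 CPM. All 4 lie above 8 CPM, where the spread is small.

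Litter was not used in choosing the regions. Levels in litter 2 and litter 1, with genotype in the model, differed at 0 of the 1643 regions at an adjusted p under 0.05 in limma, as they did over all tested regions (0.0%), and 6 had an unadjusted p under 0.05 (0.365%, against 0.223% of all tested regions). The median difference between litters was 0.00 log2 at higher and -0.01 log2 at lower regions. Of the litter term, 64.9% lies in the directions that are taken as removed by the authors' adjustment, so this test could see little of it.

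The Het difference was present in both litters at nearly all of the regions, which the choice on pooled libraries favours. Among higher regions its median was 0.35 log2 in litter 1 (3 Het, 4 WT) and 0.38 in litter 2 (2 of each), and 888 of 921 (96.4%) were higher in both. For lower regions the medians were -0.36 and -0.37 log2, and 686 of 722 (95.0%) were lower in both. The threshold of 0.3 log2 was met in both litters by 302 higher (32.8%) and 213 lower regions (29.5%).

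Whether the Het difference itself differed between litters was tested as an interaction in limma. It was called at 0 of the 1643 regions, against 0.00144% of all tested regions. The smallest adjusted p was 0.991 at the higher and at the lower regions. An unadjusted p under 0.05 was found at 50 higher regions (5.43%) and 57 lower regions (7.89%), with 4.72% over all tested regions. Without Het replicate 31, or without Het replicate 34, 1 of the 1643 regions was called, against 0.0058% and 0.0072% of all tested regions. The median SE of this interaction was 0.31 log2 for higher and 0.30 for lower regions, nearly as large as the shifts themselves, so a litter difference of that size was not detectable region by region. Of this term, 20.1% lies in the removed directions. Single regions of both sets went opposite ways in the litters: the Het difference was -1.45 log2 in litter 1 and 1.5 in litter 2 at 1 lower region, and 1.44 and -0.93 at 1 higher region. These were singled out after their values were seen.

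**Figure D5:**
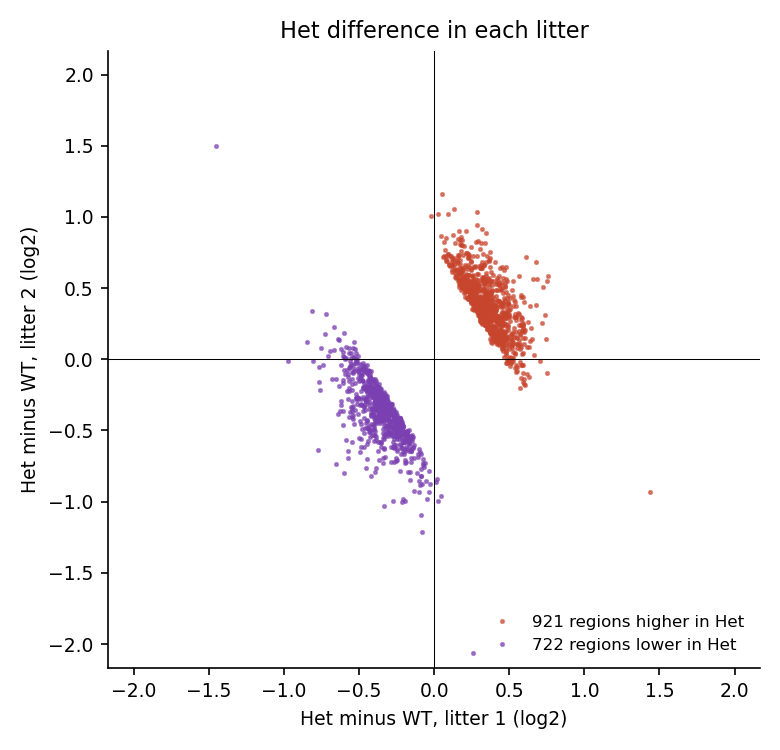
Het minus WT in litter 1 (horizontal axis, log2) and in litter 2 (vertical axis, log2), with 1 point per region, for the 921 higher (red) and 722 lower (purple) regions. The straight inner edge of each cloud is the threshold of 0.3 log2 on the pooled difference. Of the higher regions 888, and of the lower regions 686, have the same sign in both litters.

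The regions were spread over the whole numbering. In blocks of 20000 region numbers, the higher regions made up 9.58 to 13.2 of every 1000 regions of the level window and the lower ones 6.52 to 11.1, and both were found in all 12 blocks. Whether the numbers follow the order along chromosomes is not stated. A member of their own set stood at the next number for 26 higher regions (2.82%) and 4 lower regions (0.554%). No share for other regions was computed to set against these. Neighbours were taken as regions of the level window at numbers directly before or after a member, with members of both sets left out. The 568 neighbours of higher regions had a median Het difference of 0.05 log2, against -0.01 for the whole window, members included. Of these neighbours 61.3% were above WT in Het, against 46.6%. The 591 neighbours of lower regions had a median of -0.05 log2, with 62.6% below WT against 53.4%. The neighbours of both sets thus leaned the way of the member beside them, by a small part of its size, and this lean was not tested.

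Within genotypes no single direction held most of the variation left in the adjusted values. Since 3 directions are taken as removed by the authors' adjustment, the shares below cannot show whether the libraries varied along a common line before it. After each group's mean was subtracted, the first direction of variation among the 17 libraries held 12.1% of the variance at higher regions, 18.1% at lower regions and 11.9% over the level window. The larger share at lower regions was not tested.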

How the data were processed

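The authors deposited log2 CPM per numbered region after an RUVr adjustment, as the table's title says (RUVr estimates unwanted variation from residuals and removes it). mm10, Trimmomatic, Bowtie2, STAR and HTSeq are named, with no role or version, per the submitters' processing notes. The sources used here give neither the peak caller nor any shift of reads. Library sums ran from 988155 to 1045790 CPM, and without the depth of the libraries counting error could not be given.

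Embryonic libraries were grouped by genotype in the labels. The 138760 regions averaging 1 CPM or more were fitted in limma (version 3.58.1, R version 4.3.3, trend option of the empirical Bayes step) on the values as deposited with no pseudocount, and p-values were Benjamini-Hochberg adjusted over all of them. The script was tested on simulated data. Of the 16 directions of variation among libraries, 3 had a root mean square of 0.0113 to 0.0155 log2, against 0.265 or more in the others, and are taken as removed. The limma fits allowed for them only where they are named as covariates. In the other fits the SEs and p-values rest on the spread left after the adjustment and may be too small. Named regions were those with the largest Het difference and the smallest adjusted p in each direction. The members and tests were chosen with earlier results of these data known. Adult libraries were not analysed here, since their region numbers belong to another table.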

Additional observations from a re-analysis of the deposited data

How the results depend on the processing

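The number of regions that met the conditions followed the conditions themselves. It was 234 higher and 161 lower with a Het threshold of 0.4 log2, 437 and 355 with a Hom limit of 0.05 log2, and 575 and 417 with 0.5 added to CPM. Which regions met them changed more than the counts. Leaving out single libraries gave 875 to 1254 higher and 706 to 1076 lower regions, of which 566 (without WT replicate 13) to 768 of the 921 and 468 (without WT replicate 57) to 607 of the 722 were the same. Group medians gave 1186 and 1153, with 449 and 370 shared, litter 1 alone 1242 and 1322, with 336 and 304 shared, litter 2 alone 1692 and 1789, with 207 and 190 shared, and litter as a block 925 and 724, with 896 and 699 shared.

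Calls in Het (66 higher and 89 lower members, 0.4% and 0.819% of all tested regions) came to 36 and 41 with no filter on low values (0.179% and 0.335% of all), 102 and 116 with a minimum of 2 CPM (0.703% and 1.67%), 34 and 18 after quantile normalization (0.262% and 0.117%), 9 and 5 with the removed directions as covariates (0.0512% and 0.0713%), 45 and 57 with litter as a block (0.261% and 0.548%), and 4 and 5 in litter 1 alone (0.031% and 0.0627%). Single libraries left out gave 10 to 84 higher and 10 to 94 lower calls. The fewest came without Het replicate 34, where 0.062% and 0.0843% of all tested regions were called. The most came without Hom replicate 65, with 0.459% and 0.93% of all. Calls between Hom and Het (4 members of 29 regions in all) came to 1 of 15 with no filter and 8 of 44 with the minimum of 2 CPM. They came to 1 of 18 with the removed directions as covariates and 0 of 12 in litter 1 alone. The rule fixes this difference, so nothing is read from these counts. With single libraries left out, 0 to 5 members were called, and 10 to 36 regions in all. The litter term called 1 member of 8 regions in all with the removed directions as covariates. With any single library left out it called 0 members and 0 regions in all. The Het effect between litters called 1 of 15 regions in all with those covariates. With single libraries left out it called 0 to 1 members, and 0 to 10 regions in all. The Het differences of the 4 named regions kept their sign in all settings run. These regions were picked for the largest difference or the smallest adjusted p, so nothing is read from the kept sign. Libraries could not be paired by number, since the genotypes share none, and litter as a block is the matched fit. The unknown depth and 5 or 6 libraries per group limit all of these values.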
